A study of Sus scrofa with 19 samples.

Results

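The genes described here are the hypoxia-inducible factors (HIFs) and the proteins that sense oxygen for them, 9 genes in all, out of 25879 genes counted in left ventricular tissue of 19 pigs. They are the alpha subunits HIF1A, EPAS1 (HIF-2 alpha) and HIF3A, their partner ARNT (HIF-1 beta), the prolyl hydroxylases EGLN1, EGLN2 and EGLN3, the ubiquitin ligase subunit VHL and the asparaginyl hydroxylase HIF1AN. The members were taken from a fixed list of symbols, found in the annotated table of the authors and followed by Ensembl identifier into the count files. All 9 were found, and all 9 passed the filter on low counts that left 13552 genes.

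The animals were female Large White pigs by their description. DOX (n = 5) received doxorubicin and MYO (n = 5) its liposomal form Myocet, each at 60 mg/m2 in 3 cycles, and both were followed for 3 months. RemoLV (n = 3) had a reperfused myocardial infarction after 90 min of balloon occlusion and was sampled in the remote posterior wall. Hyper (n = 3) had left ventricular hypertrophy from an artificial stenosis of the aortic isthmus, and Control (n = 3) is described as sham-operated in the sample records and as untreated in the methods of the study. RemoLV, Hyper and Control were followed for 6 months, and all groups other than RemoLV were sampled in the anterior wall. The DOX and MYO data came from an earlier study, so that treatment, series and length of follow-up cannot be told apart for these 10 libraries. No sorting of cells was done, and in such bulk tissue fewer cells of a type and less RNA per cell cannot be told apart.

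The libraries held 9527710 to 20370209 counts on genes, with a median of 14527230. Values are given as CPM, the count of a gene per 1000000 counts of its library, after TMM scaling, which adjusts the library size for the makeup of the library. The names of the libraries are in conflict: in 8 of 19 columns of the table of the authors, the values follow a count file that carries another group's name. The 3 files labelled Control are the columns named RemoLV and the 3 files labelled RemoLV the columns named Control, and DOX 5 and MYO 1 are exchanged. Groups follow the count files here (file labels), and the values of the members called are given beside those for the names of the table (table names) where these differ. Nothing in the files decides between the names.

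The libraries labelled RemoLV stood apart in cardiomyocyte markers. MYL2, the regulatory light chain of ventricular myosin, was at 58.0 ± 50.8 CPM (SD, n = 3) in them and between 8975 and 18080 CPM in the 16 other libraries. MYL4, the light chain of atrial myosin, was at 7169 ± 1062 CPM in them and between 0.550 and 21.9 CPM in the others. MYL2 is thus far below its level in the 16 others, in libraries described as ventricular tissue. Every result that rests on these 3 libraries is a result of libraries with atrial markers. The summed CPM of 6 ventricular markers was 25140 to 29260 in them and 45030 to 74570 in the others. Against Control 5 of the 6 were lower and 1 higher, beside 47.2% of all genes called in either direction. The same 3 libraries were highest in the summed CPM of 8 fibroblast markers (10990 to 12610 against 1592 to 7227 in the others). They were lowest in that of 5 adipocyte markers (536 to 806 against 1103 to 3981), with no marker of either list at 0 throughout. A sum follows its most abundant genes. Of the 5 adipocyte markers 1 was higher and 1 lower in RemoLV against Control, beside 47.2% of all genes called. Their median log2 fold change was 1.67, against the direction of the sum. Within Control, 3 red blood cell markers summed to 353, 36.4 and 340 CPM and the adipocyte markers to 3469, 2086 and 3981 CPM. Both sums were lowest in Control 2. Without Control 2, however, the median log2 fold change of the adipocyte markers moved from -1.26 to 1.19 in DOX and from -0.75 to 1.68 in MYO. It moved from 1.67 to 3.52 in RemoLV and from -0.04 to 1.63 in Hyper, so that the low sum does not stand for each marker. The part of these cell types in the results was not tested. The Y-linked gene DDX3Y was at 96.1 to 177 CPM in the 10 DOX and MYO libraries and was near absent from the 9 others, with no more than 2 counts in any, against the description of all animals as female.

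HIF transcription factors pair an alpha subunit with ARNT and switch on genes of angiogenesis, glycolysis and oxygen transport. In oxygenated cells the EGLN enzymes hydroxylate prolines of the alpha subunits, VHL binds the hydroxylated protein and marks it for destruction, and HIF1AN hydroxylates an asparagine that the coactivators EP300 and CREBBP need free. The pathway is thus controlled largely at the protein level, which messenger RNA counts do not measure. EGLN3 and EGLN1 are themselves known HIF target genes, and HIF3A is known chiefly for splice forms that oppose the other factors.

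The genes lie on 7 chromosomes of the pig genome Sscrofa11.1 in the RefSeq annotation. HIF1A spans chr1:190625436-190673926 and EPAS1, on the minus strand, chr3:94167759-94253662. The span of HIF3A is chr6:52342893-52376339, that of ARNT chr4:98333431-98390012 and that of VHL chr13:66334535-66342401. EGLN1 covers chr14:59113527-59168421, EGLN2 chr6:49002266-49010042, EGLN3 chr7:65805513-65833536 and HIF1AN chr14:111636317-111654659, all on the plus strand as are the other genes but EPAS1. The counts cover the exons of each gene as a whole, so that splice forms were not separated.

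The core letters of the HIF binding motif were searched in the 250 bases before each annotated start, as ACGTG or GCGTG on either strand, where neighbouring matches may share bases. Of the 9 members 5 held at least 1 match, against 43.5% of 19531 promoters of the same length. ACGTG was found in 1 member (18.7% of all promoters) and GCGTG in 4 (32.2%). The windows of EGLN3 and HIF3A are shown because these were the members with the largest ratio of the highest to the lowest library (3.63 and 17.7). They are chr7:65805263-65805512 and chr6:52342643-52342892, on the plus strand, 5′ to 3′, with matches on either strand in capitals.
EGLN3: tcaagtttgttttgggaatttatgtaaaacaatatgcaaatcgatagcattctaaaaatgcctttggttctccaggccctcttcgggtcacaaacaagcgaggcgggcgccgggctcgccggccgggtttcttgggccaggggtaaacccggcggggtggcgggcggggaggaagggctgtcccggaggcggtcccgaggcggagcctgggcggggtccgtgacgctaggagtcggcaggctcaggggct
HIF3A: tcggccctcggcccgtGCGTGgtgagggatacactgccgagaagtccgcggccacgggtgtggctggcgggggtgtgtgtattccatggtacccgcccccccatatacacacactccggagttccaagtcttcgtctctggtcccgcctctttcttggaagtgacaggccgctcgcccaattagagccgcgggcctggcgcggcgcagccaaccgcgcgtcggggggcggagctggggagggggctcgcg
HIF3A held 1 GCGTG, and EGLN3 held neither motif within this window. A match is a description of the letters and not of a bound site.

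HIF3A showed the widest relative range of all members, from 1.55 to 27.5 CPM over the 19 libraries. It was at 16.3, 16.3 and 27.5 CPM in the libraries labelled RemoLV and at 2.24, 7.07 and 1.55 CPM in Control. In Hyper it was at 4.95, 14.2 and 4.56 CPM. The lowest, median and highest levels were 3.33, 4.06 and 7.06 CPM in DOX and 2.22, 4.30 and 9.26 CPM in MYO. All 3 libraries labelled RemoLV thus lay above all 16 others, the nearest of which was Hyper 2. The log2 fold change of RemoLV against Control was 2.44 ± 0.56 (SE; quasi-likelihood test of edgeR, adjusted by Benjamini-Hochberg over all genes, adjusted p = 0.00171). HIF3A was the one member with a log2 fold change of at least 2 in any comparison by file label, and this call was kept in 26 of 26 alternatives that keep the file labels, with values from 2.08 to 3.39. With table names the sign turns, to -2.44 in RemoLV and -2.42 in DOX (edgeR adjusted p = 8.39e-04 and 4.11e-04). Against Hyper, the file-label value was 1.34 ± 0.53 (edgeR adjusted p = 0.0578), and without Hyper 2 it was 2.06 (edgeR adjusted p = 0.0130). The gene is weakly expressed, with 22 to 309 counts per library.

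EPAS1, the alpha subunit typical of endothelium, was lowest in the libraries labelled RemoLV, at 126, 146 and 136 CPM. In Control it was at 315, 175 and 330 CPM, and in Hyper at 182, 197 and 209 CPM. DOX libraries ranged from 188 to 232 CPM (median 198) and MYO libraries from 196 to 250 CPM (median 230). The RemoLV libraries did not overlap with any other library, and 2 of the 3 Control libraries lay above all the rest while Control 2 lay below all of Hyper. Against Control the log2 fold change was -1.01 ± 0.17 in RemoLV (edgeR adjusted p = 1.65e-04) and -0.42 ± 0.15 in DOX (edgeR adjusted p = 0.0353). In MYO it was -0.28 ± 0.15 (edgeR adjusted p = 0.145) and in Hyper -0.48 ± 0.17 (edgeR adjusted p = 0.182). Without Control 2 both were called lower, with -0.52 in MYO (edgeR adjusted p = 0.00119) and -0.72 in Hyper (edgeR adjusted p = 0.00132), and the DOX value was -0.66 (edgeR adjusted p = 1.91e-04). RemoLV was also lower than Hyper, by -0.53 ± 0.17 on the log2 scale (edgeR adjusted p = 0.0238), a call lost without RemoLV 1, RemoLV 3, Hyper 2 or Hyper 3. On library totals the DOX value was 0.06 (edgeR adjusted p = 0.723) and the MYO value 0.19 (edgeR adjusted p = 0.207), RemoLV was lower than Control by -0.45 (edgeR adjusted p = 0.0105), and RemoLV against Hyper had -0.19 (edgeR adjusted p = 0.287). The call in DOX was lost without DOX 2, DOX 4, DOX 5, Control 1 or Control 3, with -0.26 and an edgeR adjusted p of 0.250 without Control 3. With table names EPAS1 was higher than Control in all 4 groups, with 0.59 (DOX), 0.72 (MYO), 1.01 (RemoLV) and 0.53 (Hyper).

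Endothelial markers were low in the RemoLV libraries as EPAS1 was. The summed CPM of 11 endothelial genes was 977 to 1061 in RemoLV and 1147 to 1625 in the 16 other libraries, with none of the 11 at 0. Within Control it was 1625, 1147 and 1494 CPM, lowest in Control 2 where EPAS1 was also lowest. In RemoLV against Control 5 of the 11 markers were lower and none higher, beside 47.2% of all genes called in either direction and 24.0% called lower. Among the 5 was PECAM1, an adhesion molecule of endothelial junctions, with -0.66 ± 0.13 (edgeR adjusted p = 6.74e-04). On library totals PECAM1 had -0.14 (edgeR adjusted p = 0.434). In DOX, where EPAS1 was also called lower than Control, 3 of the 11 were higher and 2 lower with a median of 0.12, and in MYO 3 were higher and 1 lower with a median of 0.07, which is 45.5% and 36.4% of the list beside 42.1% and 42.4% of all genes. Grouped by table names, DOX had 8 higher and 1 lower, with a median of 0.47, and MYO 7 higher and 1 lower, with a median of 0.45, which is 81.8% and 72.7% beside 29.6% and 29.2% of all genes. The part of endothelial content in the EPAS1 values was not tested.

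HIF1A, the broadly expressed alpha subunit, was highest in Control, at 168, 98.9 and 185 CPM. Hyper libraries were at 95.2, 72.4 and 68.9 CPM and RemoLV libraries at 76.0, 67.4 and 72.6 CPM. In DOX it was at 128, 81.9, 67.6, 67.2 and 67.1 CPM, and in MYO at 67.7, 57.7, 70.4, 71.2 and 70.1 CPM. Control overlapped with DOX through DOX 1 and with no other group, with Control 2 close above the highest Hyper library. The log2 fold change against Control was -0.87 ± 0.20 in DOX (edgeR adjusted p = 0.00261), -1.16 ± 0.20 in MYO (edgeR adjusted p = 2.73e-04) and -1.06 ± 0.23 in RemoLV (edgeR adjusted p = 0.00123). In Hyper it was -0.93 ± 0.23 (edgeR adjusted p = 0.112), in a comparison in which no gene of 13552 passed. On library totals the DOX value was -0.41 and no longer past the threshold (edgeR adjusted p = 0.0713), and those of MYO and RemoLV were -0.68 and -0.51 (edgeR adjusted p = 0.00485 and 0.0436). These comparisons share the 3 Control libraries. With table names, where those 3 libraries are RemoLV, HIF1A was higher in RemoLV by 1.06 (edgeR adjusted p = 0.00120) and the values of DOX, MYO and Hyper were 0.20, -0.10 and 0.13, none past the threshold.

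ARNT, the partner of all alpha subunits, ranged from 30.0 to 58.6 CPM. It was at 34.6, 37.5 and 34.4 CPM in Control and at 41.3 CPM or above in all DOX and MYO libraries, so that these groups did not overlap. The log2 fold change was 0.38 ± 0.13 in DOX (edgeR adjusted p = 0.0299) and 0.34 ± 0.13 in MYO (edgeR adjusted p = 0.0504). In RemoLV it was 0.39 ± 0.15 (edgeR adjusted p = 0.0397), and 0.18 without RemoLV 1, the highest library at 58.6 CPM (edgeR adjusted p = 0.310). The call was also lost without Control 1 or Control 3, and that in DOX without DOX 1, Control 1 or Control 3, with values from 0.31 to 0.36. On library totals the values were 0.79 in DOX, 0.76 in MYO and 0.88 in RemoLV, all called (edgeR adjusted p = 0.00118, 0.00165 and 8.84e-04). With table names the DOX and MYO values were -0.01 and -0.05, and that of RemoLV was -0.39 (edgeR adjusted p = 0.0396).

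Among the oxygen sensors, EGLN3 had the largest ratio of highest to lowest library. It was at 93.0, 71.9 and 70.6 CPM in RemoLV and at 199, 256 and 220 CPM in Control. Hyper libraries were at 196, 208 and 155 CPM. DOX ranged from 135 to 201 CPM (median 169) and MYO from 125 to 251 CPM (median 174). All 3 RemoLV libraries lay below all 16 others, while the other 4 groups overlapped. The log2 fold change was -1.52 ± 0.22 against Control (edgeR adjusted p = 2.89e-05) and -1.25 ± 0.22 against Hyper (edgeR adjusted p = 2.34e-04), and both calls were kept in 26 of 26 alternatives with file labels. With table names the same libraries are Control, and EGLN3 was higher than Control in all 4 groups, by 1.11 to 1.52 on the log2 scale (highest edgeR adjusted p = 4.24e-04).

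EGLN2, a prolyl hydroxylase found largely in the nucleus, was at 7.90 to 17.5 CPM. Control libraries were at 10.97, 8.37 and 8.18 CPM and Hyper libraries at 7.90, 10.5 and 11.9 CPM. RemoLV libraries were at 14.9, 14.0 and 15.1 CPM. MYO ranged from 13.6 to 15.4 CPM and DOX from 9.50 to 17.5 CPM, with DOX 5 the one library of both groups under 13.5 CPM. The log2 fold change against Control was 0.60 ± 0.17 in DOX, 0.69 ± 0.17 in MYO and 0.67 ± 0.19 in RemoLV (edgeR adjusted p = 0.00870, 0.00346 and 0.00623). With table names these were 0.04, -0.10 and -0.67, the last called lower (edgeR adjusted p = 0.868, 0.668 and 0.00552). On library totals they were 1.04, 1.12 and 1.19, all called, and without Control 3 the DOX value was 0.53 (edgeR adjusted p = 0.0531). DOX and MYO together were higher than Hyper by 0.50 ± 0.15 (edgeR adjusted p = 0.0174), a comparison in which both namings put the same libraries on each side. With table names this value was again 0.50 (edgeR adjusted p = 0.0160), and without Hyper 1 it was 0.36 (edgeR adjusted p = 0.146). The comparison also follows the split by series, follow-up and DDX3Y, from which it cannot be told apart.

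EGLN1, the main HIF prolyl hydroxylase, had the narrowest relative range of the 3 prolyl hydroxylases, from 102 to 160 CPM. It was at 139, 125 and 160 CPM in Control, and all 10 DOX and MYO libraries lay below the lowest of these. The log2 fold change was -0.29 ± 0.10 in DOX (edgeR adjusted p = 0.0233) and -0.32 ± 0.10 in MYO (edgeR adjusted p = 0.0143). With library totals in place of TMM the signs turned, to 0.15 and 0.12 (edgeR adjusted p = 0.293 and 0.384). Without Control 3, its highest library, the values were -0.19 and -0.22 (edgeR adjusted p = 0.182 and 0.128). With table names they were -0.14 and -0.16 (edgeR adjusted p = 0.312 and 0.254).

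VHL was at 9.55 to 15.0 CPM over all libraries. The gene encodes the subunit that recognises hydroxylated alpha subunits. Group means lay between 11.7 CPM in Control and 12.8 CPM in MYO, and the lowest and highest library were both Control. No comparison by file label with TMM scaling called it, and the 95% interval of the log2 fold change was -0.27 to 0.30 in DOX and -0.26 to 0.39 in RemoLV. Without Control 2, its highest library, the log2 fold change in MYO was 0.34 (edgeR adjusted p = 0.0383), and on library totals it was 0.51 (edgeR adjusted p = 0.0469).

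HIF1AN, the asparaginyl hydroxylase, was at 238, 160 and 236 CPM in Control and between 129 and 186 CPM in the 16 others. It was lower than Control in DOX by -0.38 ± 0.13, in MYO by -0.39 ± 0.13 and in RemoLV by -0.54 ± 0.15 (edgeR adjusted p = 0.0277, 0.0238 and 0.00577). On library totals these values were 0.08, 0.07 and 0.00, none past the threshold. With table names HIF1AN had 0.17 in DOX and 0.16 in MYO, neither past the threshold, and was higher in RemoLV by 0.54 (edgeR adjusted p = 0.00574). The calls in DOX and MYO were lost without Control 1 or Control 3, with values from -0.30 to -0.28 and edgeR adjusted p from 0.131 to 0.154. Over 27 alternatives with file labels, the DOX call was kept in 21 and the MYO call in 20.

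**Figure D1:**
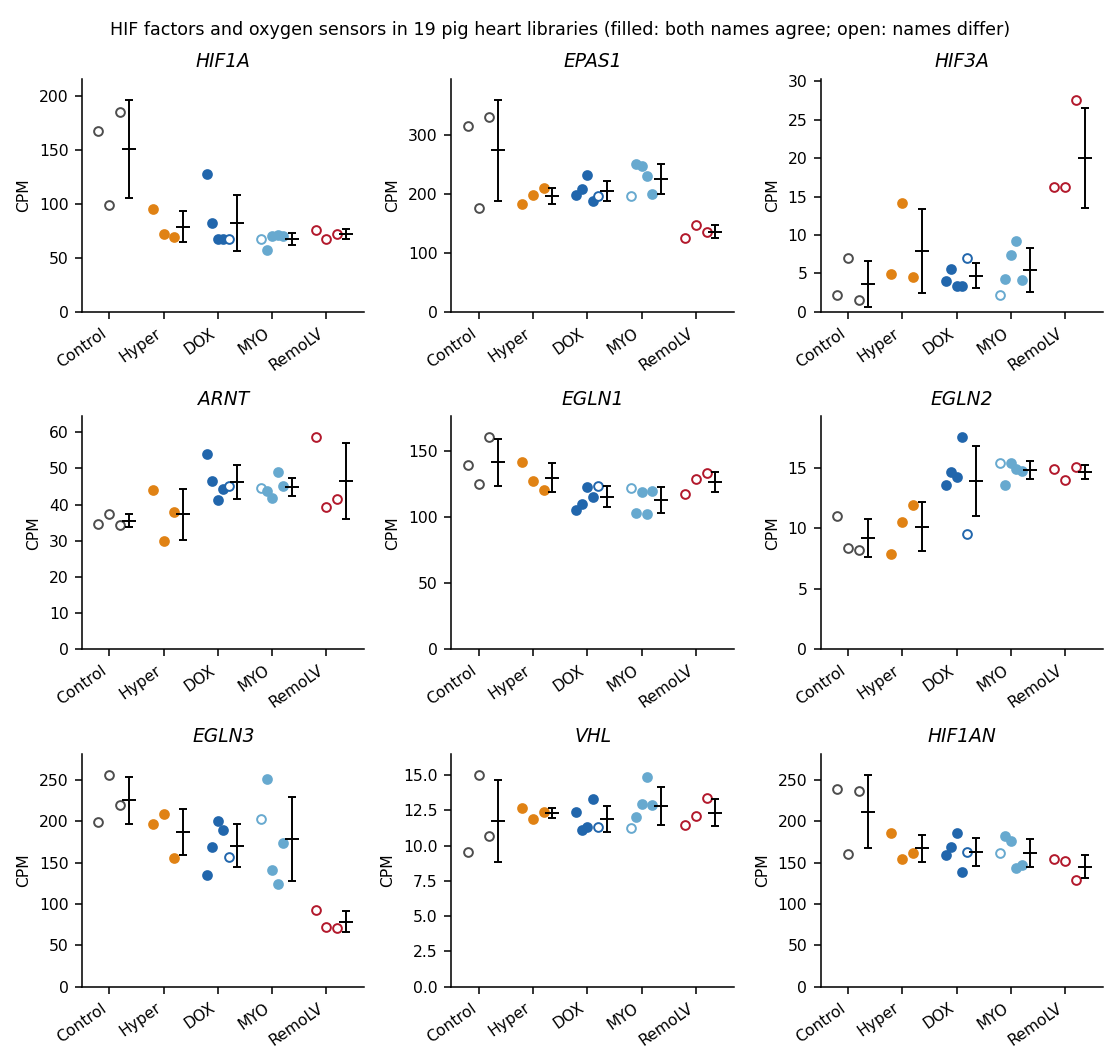
Level of each member in CPM (y axis, from 0) in each library, by the group on the count file (x axis). Points are libraries, open where the table of the authors gives another group, and the bar gives the mean ± SD. The 3 RemoLV libraries lie above all others for HIF3A (16.3 to 27.5 CPM) and below all others for EPAS1 and EGLN3.

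The spread within Control was wide. The coefficient of variation of the 9 members had a median of 21.0% in Control, where that of all genes was 19.9%. In DOX, MYO, RemoLV and Hyper the members' median was 10.4%, 10.6%, 7.83% and 14.9%, below that of all genes in each group. With TMM scaling, Control 2 was the lowest Control library for HIF1A, EPAS1, EGLN1 and HIF1AN and the highest for HIF3A, ARNT, EGLN3 and VHL. This order and the spread depend on the scaling. On library totals HIF1AN had 164.6 ± 10.3 (SD, n = 3) in Control, where TMM gave 211.5 ± 44.4. EGLN3 had 182.1 ± 56.2, where TMM gave 225.1 ± 28.7. The TMM factors were 0.735, 0.965 and 0.696 in Control and 0.834 to 1.18 in the 16 others, and the 10 most abundant genes held 32.3%, 24.6% and 33.7% of the counts in Control against 17.9% to 30.7% in the others. On library totals the median log2 fold change of all genes against Control was 0.45 (DOX), 0.44 (MYO), 0.52 (RemoLV) and 0.17 (Hyper), where TMM gave 0.03, 0.02, 0.02 and 0.01. The members' medians moved from -0.29, -0.28, -0.16 and -0.12 to 0.15, 0.19, 0.37 and 0.05, still below the median of all genes in each. The part of the library composition in these differences was not tested.

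Ratios of 2 genes within 1 library need no scaling. The count of EGLN3 was 0.531 to 0.790 times that of EGLN1 in the RemoLV libraries and 1.19 to 2.43 times in the 16 others. HIF3A had 0.214 to 0.380 of the counts of HIF1A in RemoLV and 0.00838 to 0.197 in the others. Neither ratio overlapped between RemoLV and the other libraries, whatever the scaling. EGLN3 and HIF3A stood apart by level as well, so that these ratios are no separate result. How many of all pairs of genes part in this way was not counted. EPAS1 had 1.77 to 1.88 times the counts of HIF1A in Control, 2.85 to 4.33 times in MYO and 1.65 to 2.17 times in RemoLV. Here Control and MYO did not overlap, and Control 2 lay with the other Control libraries although its levels of both genes were lower.

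**Figure D2:**
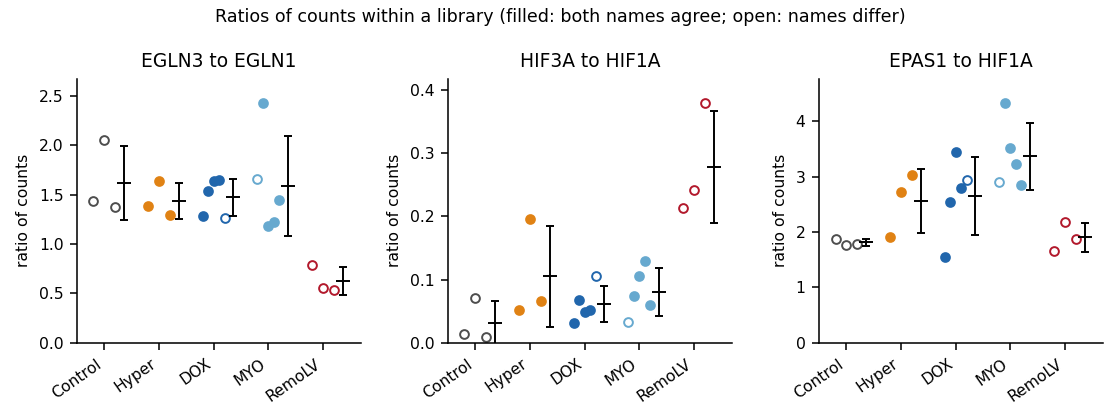
Ratio of the counts of 2 genes in the same library (y axes, no unit), by the group on the count file. Points are libraries, open where the names differ, and bars give the mean ± SD. EGLN3 to EGLN1 stays under 0.790 in RemoLV and above 1.18 elsewhere.

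Over all 13552 genes, the 3 RemoLV libraries lay above all others in 8.18% and below in 7.98%, 16.2% in either direction. Of the 9 members 3 stood apart in this way, HIF3A above and EPAS1 and EGLN3 below. On library totals the same 3 members stood apart, with EPAS1 at 141 to 161 in RemoLV and from 162 upwards in the others.

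By file label, 6 of the 9 members passed the adjusted threshold of 0.05 in DOX against Control, where 42.1% of all genes did, 21.0% higher and 21.1% lower. EGLN2 and ARNT were higher and HIF1A, EPAS1, EGLN1 and HIF1AN lower, and the median log2 fold change of the members was -0.29 against 0.03 over all genes. In MYO 4 members passed (42.4% of all genes, 20.7% higher and 21.7% lower), with EGLN2 higher and HIF1A, EGLN1 and HIF1AN lower. In RemoLV 7 members passed (47.2% of all genes, 23.1% higher and 24.0% lower), with EGLN2, HIF3A and ARNT higher and EGLN3, HIF1A, EPAS1 and HIF1AN lower. In Hyper the edgeR test called 0 members and 0.0% of all genes, with 3 members and 2418 genes at an unadjusted p under 0.05, and DESeq2 called 1 member, HIF1A, and 2.5% of the genes it gave an adjusted p. Without Control 2, edgeR called 4 members in Hyper (18.4% of all genes), HIF3A higher and HIF1A, EPAS1 and HIF1AN lower. Without Control 2, 7 members passed in MYO (45.8% of all genes), EPAS1 among them. Without Control 3, HIF1A alone passed in DOX (27.4% of all genes) and HIF1A and EGLN2 in MYO (28.1% of all genes).

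No member passed the test between DOX and MYO. The edgeR test called 0 members and 0.0% of all genes between them, with 0 members and 960 genes at an unadjusted p under 0.05, and DESeq2 called 0 members and 0.0148% of the genes it gave an adjusted p. The 95% interval of the log2 difference was -0.09 to 0.67 for HIF1A and -0.41 to 0.28 for EGLN3, so that differences of this size are not excluded. RemoLV against Hyper called 3 members (35.6% of all genes, 17.0% higher and 18.6% lower), EGLN2 higher and EGLN3 and EPAS1 lower. DOX and MYO against Hyper called EGLN2 alone (32.6% of all genes, 15.8% higher and 16.9% lower).

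With table names the picture turned. DOX and MYO each called 3 members, EGLN3 and EPAS1 higher and HIF3A lower. Of all genes 29.6% were called in DOX, 15.0% higher and 14.6% lower, and 29.2% in MYO, 14.8% higher and 14.4% lower. RemoLV called the same 7 members in the opposite direction (47.2% of all genes, 24.0% higher and 23.2% lower), since its libraries and those of Control change places. Hyper called 4 members (35.8% of all genes, 18.7% higher and 17.2% lower), with EGLN3 and EPAS1 higher and EGLN2 and HIF3A lower, and RemoLV against Hyper called 0, with 0.0% of all genes and 4 members at an unadjusted p under 0.05. DOX and MYO against Hyper again called EGLN2 alone (32.7% of all genes, 15.8% higher and 16.9% lower).

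On library totals, file labels kept, the shift of all genes moved most calls to the higher side. In DOX 2 members were higher, EGLN2 and ARNT, where 46.7% of all genes were called, 41.5% higher and 5.2% lower. In MYO 3 were higher, EGLN2, ARNT and VHL, and HIF1A lower (46.1% of all genes, 40.6% higher and 5.56% lower). In RemoLV 4 were higher, among them EGLN1, and EGLN3, HIF1A and EPAS1 lower (53.2% of all genes, 45.6% higher and 7.66% lower). RemoLV against Hyper called EGLN2, HIF3A and ARNT higher and EGLN3 lower (37.5% of all genes, 30.4% higher and 7.1% lower). DOX and MYO against Hyper called EGLN2, ARNT and EPAS1 higher (34.3% of all genes, 28.7% higher and 5.61% lower). In RemoLV against Control, the calls of lower EGLN3, HIF1A and EPAS1 and of higher HIF3A stood under both scalings, while the values of the first 3 were smaller on library totals, at -1.04, -0.51 and -0.45.

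**Figure D3:**
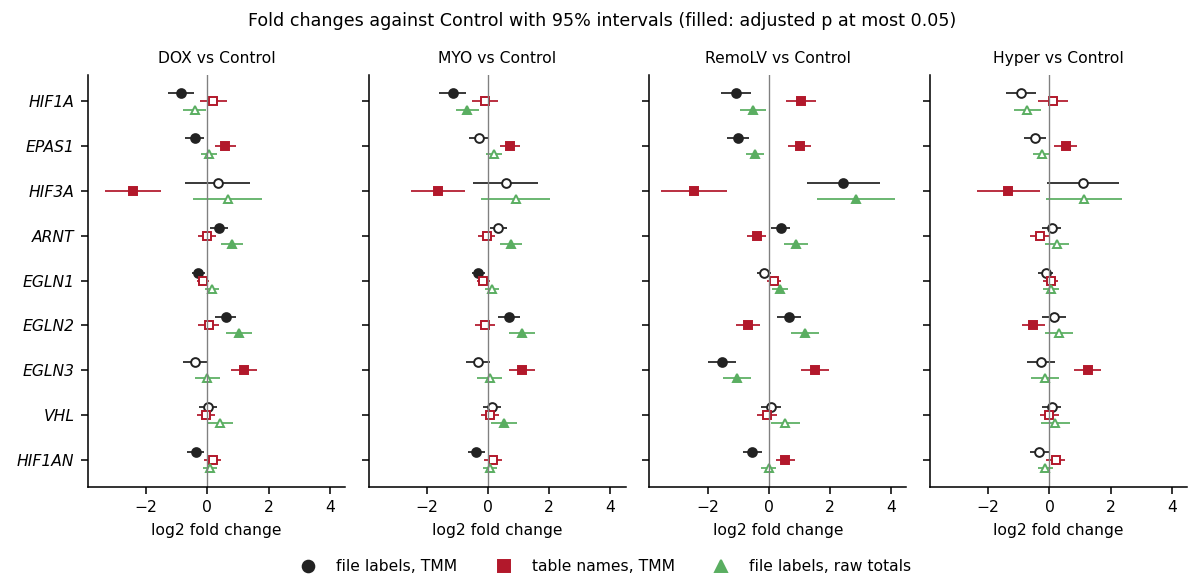
Log2 fold change against Control (x axis) of each member with its 95% interval, from the edgeR model. Black circles are file labels with TMM scaling, red squares table names and green triangles file labels on library totals, filled where the adjusted p is at most 0.05. Red and black differ in sign for HIF3A and EGLN3 in every panel, and VHL stays within 0.54 of 0 in all fits.

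The partners of VHL in its ubiquitin ligase were lower in several comparisons. Elongin B (ELOB), elongin C (ELOC), the scaffold CUL2 and the ring protein RBX1 were all 4 lower than Control in DOX and in MYO, with a median log2 fold change of -0.42 and -0.39 against 0.03 and 0.02 over all genes, of which 21.1% and 21.7% were called lower. In RemoLV 3 of the 4 were lower (24.0% of all genes), and in Hyper none passed. ELOC was at 56.0 to 73.1 CPM in the 10 libraries of DOX and MYO, below the 78.3 to 149 CPM of the 9 others without overlap. This split is also that by series, follow-up and DDX3Y, and how many of all genes part in this way was not counted. The log2 fold change of ELOC was -1.04 ± 0.11 in DOX against Control (edgeR adjusted p = 2.47e-06) and -0.74 ± 0.10 in DOX and MYO against Hyper (edgeR adjusted p = 2.23e-05). In the latter comparison ELOB and RBX1 were lower too, and with table names ELOB, ELOC and RBX1 were again lower, by -0.62, -0.74 and -0.44. On library totals ELOC stayed lower than Control in DOX (-0.59, edgeR adjusted p = 4.94e-04), while ELOB, CUL2 and RBX1 had 0.05, 0.10 and -0.05, none past the threshold. With table names ELOC and RBX1 were lower in DOX against Control (-0.38 and -0.28), where 14.6% of all genes were called lower, and no partner passed in MYO. With the same names ELOB, ELOC and CUL2 were higher than Control in RemoLV (24.0% of all genes), and in Hyper ELOB and ELOC were (18.7% of all genes), by 0.85 and 0.45 with a median of 0.34 over the 4 partners.

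Of 14 other partners and regulators of HIF tested, 8 passed in DOX, 7 in MYO and 8 in RemoLV against Control, 3 of them higher in each, which is 57.1%, 50% and 57.1% beside 42.1%, 42.4% and 47.2% of all genes. With table names 4, 4 and 8 passed, which is 28.6%, 28.6% and 57.1% beside 29.6%, 29.2% and 47.2% of all genes. The coactivators EP300 and CREBBP were not called in any comparison with Control by file label, with log2 fold changes in DOX of 0.11 ± 0.13 and 0.05 ± 0.17 (edgeR adjusted p = 0.545 and 0.842). CREBBP was higher in DOX and MYO than in Hyper by 0.50 ± 0.16 (edgeR adjusted p = 0.0203). CITED2, which competes with HIF for these coactivators, had 0.05 ± 0.45 in DOX and 0.73 ± 0.50 in RemoLV, neither past the threshold (edgeR adjusted p = 0.935 and 0.242). Of 9 further oxygen-dependent enzymes tested, 2 were higher and 3 lower in DOX and in MYO, and 1 higher and 2 lower in RemoLV, which is 55.6%, 55.6% and 33.3% beside the same shares of all genes. By table names the counts were 3 higher and 0 lower in DOX, 2 and 2 in MYO, and 2 and 1 in RemoLV, which is 33.3%, 44.4% and 33.3%.

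HIF target genes moved in both directions. Of 37 tested, among them EGLN3, 7 were higher and 5 lower in DOX against Control, 3 and 6 in MYO, and 8 and 10 in RemoLV. These are 32.4%, 24.3% and 48.6% of the list beside 42.1%, 42.4% and 47.2% of all genes, and the list's median log2 fold change was 0.01, -0.10 and -0.03. Grouped by table names, DOX had 9 higher and 8 lower targets, MYO 9 and 7, RemoLV 10 and 8, and Hyper 9 and 7. These are 45.9%, 43.2%, 48.6% and 43.2% of the list beside 29.6%, 29.2%, 47.2% and 35.8% of all genes, so that the share called in DOX and MYO lay below that of all genes with one naming and above it with the other. Neither naming gave a list that was mostly higher or mostly lower.

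VEGFA, the growth factor of blood vessels, was at 268 to 713 CPM in the 10 libraries of DOX and MYO, above the 165 to 227 CPM of the 9 others without overlap. Against Control its log2 fold change was 1.13 ± 0.24 in DOX and 0.96 ± 0.24 in MYO (edgeR adjusted p = 0.00151 and 0.00426), and with table names it was 1.12 and 1.09 (edgeR adjusted p = 0.00254 and 0.00301). PDK1, which holds pyruvate back from the mitochondria, was at 68.0 to 128 CPM in DOX and MYO together, below the 129 to 211 CPM of the other libraries. Its log2 fold change was -0.76 ± 0.18 in DOX and -0.67 ± 0.18 in MYO (edgeR adjusted p = 0.00322 and 0.00723), and -0.31 and -0.22 on library totals, where neither passed. The 2 targets thus differed in direction in the same libraries under both namings. The split of these 10 libraries from the 9 others is also that by series, follow-up and DDX3Y, from which it cannot be told apart. How many of all genes part in this way was not counted.

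KDM3A, a histone demethylase, was higher in DOX by 0.35 ± 0.10 (edgeR adjusted p = 0.00983) and ADM, the peptide adrenomedullin, by 0.96 ± 0.31 (edgeR adjusted p = 0.0186). With table names these were 0.14 and 0.71, neither past the threshold (edgeR adjusted p = 0.314 and 0.0942), and without Control 2 ADM had 0.80 (edgeR adjusted p = 0.0735). BNIP3, ANKRD37 and NDRG1, which are induced in many hypoxic cells, were not called in any of the 4 groups against Control by file label.

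**Figure D4:**
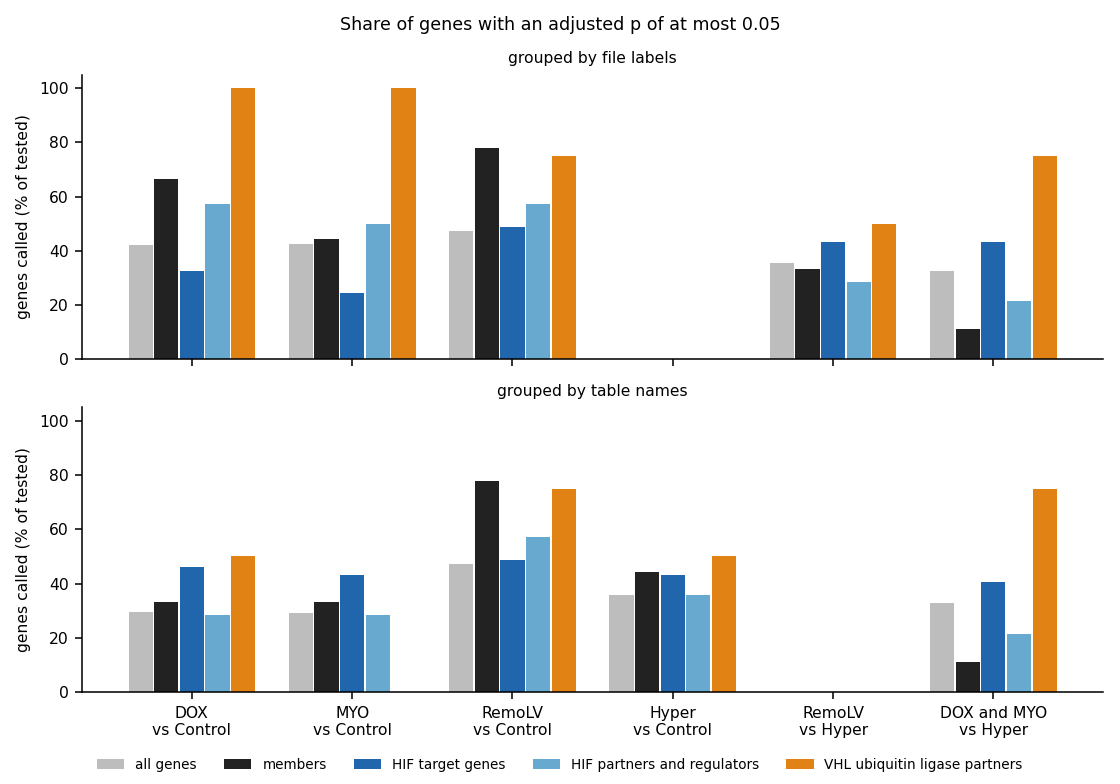
Share of tested genes with an adjusted p of at most 0.05 (y axis, percent) in 6 comparisons (x axis), grouped by file labels (top) and by table names (bottom). Bars are all 13552 genes, the 9 members, 37 HIF targets, 14 partners and regulators, and 4 partners of VHL in its ligase. The bars of the targets lie below those of all genes in DOX and MYO by file label and above them by table names, while those of the ligase partners reach the full height in DOX and MYO by file label. No bar is seen where no gene was called.

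The genes most like each member were sought among 8049 others (8050 for HIF3A) with a symbol and a mean of at least 10 CPM, by Pearson correlation of log2 CPM over the 19 libraries. These libraries share groups, scaling and the split in markers, so the values describe them only. HIF1A was most like AFF4 (r = 0.955) and G3BP2 (0.951), and EPAS1 like MICAL3 (0.934) and ARHGAP35 (0.920). HIF3A was most like ETV1 (0.915) and IFT46 (0.897), and EGLN3 like DYNC1I1 (0.922) and FXR2 (0.911). ARNT was nearest to SCARB1 (0.904) and ANGPTL2 (0.860), EGLN1 to TTC17 (0.903) and PAFAH1B2 (0.901), and EGLN2 to SLC10A3 (0.934) and ADAMTS10 (0.921). HIF1AN was nearest to FAM98A and NEK9 (both 0.890). VHL had the lowest values, with AGA (0.799) and TSEN15 (0.740). Among the members themselves, the highest r was 0.77 between HIF1AN and EPAS1 and the lowest -0.75 between HIF3A and EPAS1, over the same 19 libraries.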

How the data were processed

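Poly(A) RNA of 19 left ventricular samples, 1 library per pig, was sequenced as Illumina paired-end reads. The authors aligned reads with STAR to Sscrofa11.1 and deposited raw counts per Ensembl gene from HTSeq 0.11.1 (union mode, reverse strand). The authors also deposited an annotated table with log2 expression per sample, and with log2 fold changes and adjusted p-values of their own DESeq2 comparisons, which were not used. Its symbols gave the members, and its expression columns were matched to the count files by Spearman correlation (each own match 1.0, highest other 0.992).

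Counts were filtered by group with filterByExpr, leaving 13552 genes, scaled by TMM and fitted in edgeR 4.0.16 as 1 quasi-likelihood model over 5 groups, without covariates. P-values were adjusted by Benjamini-Hochberg over all genes in each of 7 comparisons, and 0.05 was the threshold. A log2 fold change of 2 was used as a threshold of size. On simulated counts for 13552 genes the script recovered 73% of changes of 1 and 96% of changes of 2 on the log2 scale in DOX against Control, 64% and 94% in RemoLV, and 53% and 91% in Hyper. Alternatives were table names, RLE scaling, DESeq2 1.42.0, other filters, a replicate block, fits of the compared groups only, and leaving out libraries. Scaling by library totals was added after seeing the data. The members and the gene lists were chosen with earlier results of these data known. Other genes were named as the markers and pathway genes of those lists, and similar genes as the 2 with the highest correlation to each member. Promoters came from the RefSeq annotation of Sscrofa11.1. The promoter sequences of the other members are not reported here.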

Additional observations from a re-analysis of the deposited data

Results flagged for a closer look

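In 18 groups of 5 libraries, the highest or the lowest library was compared with its nearest neighbour relative to the range of the group. For HIF1A in DOX, the highest library, DOX 1 at 128 CPM, lay apart with a gap of 0.756 of the range, above the critical value of 0.71. For HIF1A in MYO, the lowest library, MYO 2 at 57.7 CPM, lay apart with a gap of 0.735. Chance gives such a library in about 1 in 20 groups.

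The effects of RemoLV and Hyper against Control differed for 3 members when the difference itself was tested. The log2 difference was -0.53 for EPAS1, 0.53 for EGLN2 and -1.25 for EGLN3 (edgeR adjusted p = 0.0238, 0.0310 and 2.34e-04). The EGLN2 call was kept in 20 of 26 alternatives with file labels, which gave 0.38 to 0.87 and edgeR adjusted p up to 0.147, the highest without Hyper 1. With table names the values were 0.48, -0.14 and 0.27, none past the threshold (edgeR adjusted p = 0.180, 0.713 and 0.510).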

How the results depend on the processing

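Of 1746 fold changes of the members under alternatives, 1632 kept their direction and side of the threshold or were past it in neither fit, 48 lost a call, 35 gained one and 31 reversed. Of the reversals, 25 came with table names and 6 on raw library totals, a scaling chosen after seeing the data. The cause of these changes was not tested, other than that table names exchange the RemoLV and Control libraries. RLE scaling changed none of 63 calls. Groups of 3 libraries and weak expression, as of HIF3A, limit what could be called.

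With table names, DOX had HIF1A 0.20, EPAS1 0.59, HIF3A -2.42, ARNT -0.01, EGLN3 1.19 and HIF1AN 0.17. MYO had EPAS1 0.72, HIF3A -1.64, EGLN2 -0.10, EGLN3 1.11 and HIF1AN 0.16. RemoLV had HIF1A 1.06, EPAS1 1.01, HIF3A -2.44, ARNT -0.39, EGLN2 -0.67, EGLN3 1.52 and HIF1AN 0.54. Hyper had EPAS1 0.53, HIF3A -1.34, EGLN2 -0.53 and EGLN3 1.25, and RemoLV against Hyper had EPAS1 0.48, EGLN2 -0.14 and EGLN3 0.27. On raw library totals, DOX had EPAS1 0.06, EGLN1 0.15 and HIF1AN 0.08, MYO had EGLN1 0.12 and HIF1AN 0.07, and RemoLV had EGLN1 0.37. All are log2 fold changes that reversed, and 18 of 45 group means in CPM moved by over 1 SD on raw library totals.

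The number of members called higher and lower also moved. With table names, 1 was lower in DOX, 2 were higher and 1 lower in MYO, 2 higher and 2 lower in Hyper, and 0 higher and 0 lower in RemoLV against Hyper. On raw library totals, 0 were lower in DOX, 3 higher and 1 lower in MYO, 3 higher and 1 lower in RemoLV against Hyper, and 3 higher in DOX and MYO against Hyper. With the compared groups only, 1 was lower in DOX, 2 higher in MYO and 2 higher in RemoLV against Hyper. In MYO, 2 were higher with at least 10 counts in every library and without the RemoLV libraries, which also gave 2 higher in DOX and MYO against Hyper. DESeq2 called 1 lower in Hyper and 2 higher in RemoLV against Hyper, where no filter called 0 higher. The shares of all genes called with table names, on raw library totals and by DESeq2 in Hyper are given above. For the other fits they are not given, so that those counts are not read as results about the members.

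Leaving out 1 library at a time gave 0 to 2 higher and 1 to 4 lower in DOX, 1 to 3 and 1 to 4 in MYO, 2 to 3 and 4 to 4 in RemoLV, 0 to 1 and 0 to 3 in Hyper, 0 to 2 and 1 to 2 in RemoLV against Hyper, and 1 to 2 and 0 to 0 in DOX and MYO against Hyper. Without Control 3, DOX had 0 higher and 1 lower, and MYO 1 and 1. Without Control 1, DOX had 1 and 2. Without Control 2, MYO had 3 and 4 and Hyper 1 and 3. The share of all genes called moved too, from 42.1% to 27.4% in DOX without Control 3. In MYO it went from 42.4% to 28.1% without Control 3 and to 45.8% without Control 2. In Hyper it went from 0.0% to 18.4% without Control 2. For the other libraries left out, the shares of all genes are not given.

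The replicate numbers did not pair the libraries. The correlation of deviations was -0.25 to 0.24 over 32 pairs of the same number, over 0.1 in 4 of them, and 4 of 19 libraries were closest to their own number. With the replicate block, 2 members were lower in DOX and 2 higher in RemoLV against Hyper, and the share of all genes is not given.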
